A study of Penicillium oxalicum with 9 samples.

Results

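The effect of deleting *rsrB* on the transcriptome of the filamentous fungus *Penicillium oxalicum* was examined across 8597 of the 9721 genes listed for each library. The comparison was between 3 libraries of the deletion mutant Δ*rsrB* and 3 libraries of its parental strain Δ*ku70*, and genes entered it where their FPKM averaged 1 or more over these 6 libraries. FPKM counts the sequenced fragments of a gene relative to its transcript length and to all mapped fragments of a library, so that it is a level per length. Δ*ku70* lacks *ku70*, a gene of non-homologous end joining, and the deletion of *rsrB* was made in that background, so that both strains lack *ku70* and carry its hygromycin-resistance marker. The mutant also carries the geneticin-resistance marker that came with the deletion of *rsrB*, which Δ*ku70* does not have. Loss of *rsrB* and presence of this marker therefore cannot be told apart in the comparison of Δ*rsrB* with Δ*ku70*. Spores from potato dextrose agar plates kept at 28 °C for 4 days (per the labels) were grown with glucose for 24 h, and the mycelium was collected 24 h after transfer to the inducing medium. The labels name raw starch as the carbon source of that medium in one field and Avicel, a microcrystalline cellulose, in another, while the study's methods name commercial corn starch. The 3 cultures of each strain were called biological replicates, and whether the Δ*rsrB* cultures came from 1 transformant is not given in the sources used here. Another strain of the series, Δ*rsrA*, was used only to set the level of a gene beside the comparison. It lacks *rsrA* and, per the study's list of strains, also lacks *ku70* and carries both the hygromycin and the geneticin marker.

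RsrB is a transcription factor of the zinc cluster (Zn2Cys6) type, a class found in fungi. Its members bind DNA through a binuclear zinc cluster, often at short repeated triplets, and many of them switch pathways of carbon and nitrogen use or of secondary metabolism. In filamentous fungi, the genes of a secondary metabolite pathway often lie side by side on a chromosome and are transcribed together, and genes for secreted enzymes that break down starch or cellulose are turned on when glucose is gone. The identifiers in the gene lists are older than those in the annotation at hand and could be paired with a name for *rsrB* (POX08340, inferred from the labels) and *rsrA* (POX01907) only. The other genes are therefore described by level, by change and by the position of their number in the list, and markers of mycelium and of conidiation could not be checked.

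The deleted gene was examined first. *rsrB* was listed at 0 in all 3 Δ*rsrB* libraries, against 30.62, 35.67 and 30.61 FPKM in Δ*ku70*. The level of the gene thus fitted the label of each of the 6 libraries. In Δ*rsrA* the gene had 8.26, 8.01 and 7.28 FPKM. Besides *rsrB*, 1 other gene was listed at 0 in every Δ*rsrB* library and above 0 in every Δ*ku70* library, and 2 genes showed the opposite. *rsrA*, which encodes another regulator of starch-degrading enzyme production, had 24.23, 20.41 and 19.88 FPKM in Δ*rsrB*, against 22.87, 17.08 and 16.52 FPKM in Δ*ku70*. The values of the 2 strains overlapped, with a log2 fold change of 0.19 ± 0.18 (SE) and an adjusted p of 0.534 in limma. A two-sided exact permutation test of the 6 libraries gave p = 0.3, where 3 against 3 libraries cannot give less than 0.1.

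Both genes numbered next to *rsrB* had log2 fold changes outside the range of -2.38 to 2.08 that held the middle 98% of all tested genes. POX08341, the following identifier, was chosen after its values were seen because it stands beside the deleted gene. It had 24.1, 22.45 and 16.79 FPKM in Δ*rsrB*, against 171.61, 177.12 and 141.61 FPKM in Δ*ku70*. It was 7.74-fold lower in the mutant (21.1 ± 3.83 FPKM in Δ*rsrB* and 163 ± 19.1 FPKM in Δ*ku70*, SD, n = 3 each), with a log2 fold change of -2.90 ± 0.19 (SE) and a limma adjusted p of 0.00101. In Δ*rsrA*, POX08341 had 23.56 to 32.15 FPKM, close to its level in Δ*rsrB*. The *rsrB* gene was present in Δ*rsrA*, but at 7.28 to 8.26 FPKM, below its level in Δ*ku70*. The identifier just before *rsrB* moved the other way, with 284.6, 237.24 and 215.45 FPKM in Δ*rsrB*, against 11.67, 73.87 and 65.55 FPKM in Δ*ku70*. The strains did not overlap there, but Δ*ku70* replicate 1 stood far below the other Δ*ku70* libraries, and the gene did not pass the test (log2 fold change 2.62 ± 0.67, SE, limma adjusted p = 0.0843). In Δ*rsrA* this gene had 17.78, 18.75 and 18.95 FPKM, within the range of the Δ*ku70* libraries and far below Δ*rsrB*. Unlike POX08341, it thus differed between the mutants. Of the 8 other identifiers within 5 of *rsrB*, 1 rose (log2 fold change 1.38, limma adjusted p = 0.0455), 1 was too low to be tested, and the remaining 6 did not pass, with log2 fold changes between -0.75 and 0.60. An effect that the construction of the mutant had on the neighbouring genes and one through RsrB cannot be told apart in these libraries, and strandedness of the libraries is not given in the sources used here, so that reads of overlapping neighbours may be shared.

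**Figure D1:**
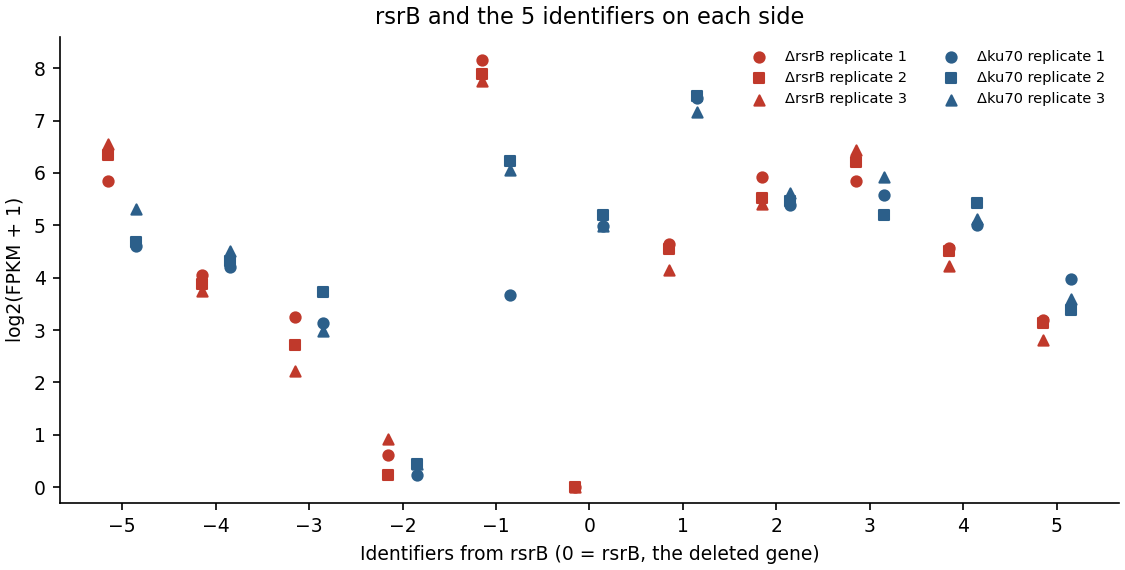
Level, as log2(FPKM + 1), of the genes numbered up to 5 before and 5 after rsrB (0 on the x axis), with 1 point per library, ΔrsrB in red to the left and Δku70 in blue to the right of each position and the marker shape giving the replicate. rsrB is at 0 in ΔrsrB, the identifier after it is lower in all 3 ΔrsrB libraries, and the identifier before it is higher in all 3, with Δku70 replicate 1 far below the other Δku70 libraries.

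Across all genes, 340 of 8597 (3.95%) had an adjusted p under 0.05 in limma and are called DEGs. Of these, 148 (1.72%) rose and 192 (2.23%) fell in Δ*rsrB*. None of the 340 had overlapping values between the strains, beside 33.1% of all tested genes without overlap. A call from 3 against 3 libraries leaves little room for overlap, so that this adds no support to the calls. The study itself reported many more DEGs between these strains at a false discovery rate under 0.05, with more rises than falls. Its methods name another tool, NOISeq, and the reason for the difference was not tested. Among the DEGs the rises were larger at the median than the falls. The median log2 fold change was 1.88 among the raised DEGs (interquartile range 1.17 to 2.74) and -1.35 among the lowered DEGs (interquartile range -1.98 to -1.07). A change of at least 4-fold was reached by 69 raised DEGs (46.6%) and 48 lowered DEGs (25%), and a change of at least 16-fold by 10 and 7. The smallest calls were log2 fold changes of 0.65 and -0.72, and 277 DEGs (3.22% of the tested genes) changed by at least 2-fold, 121 of them raised and 156 lowered. All log2 fold changes were taken between means of log2(FPKM + 1), and the added 1 makes them smaller than the true change where a gene is near 0.

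Most of the transcriptome moved little. Over the 8597 genes the median log2 fold change was 0.04 and the middle 50% lay between -0.28 and 0.35. The median was -0.03 where each library was rescaled to the same total. A difference of at least 2-fold was found for 937 genes (10.9%), 416 higher and 521 lower in Δ*rsrB*, and the strains did not overlap for 712 of these (8.28%). Over all tested genes the falls reached further than the rises, with the lowest 5% at -1.10 or below and the highest 5% at 0.99 or above. Both tails and the 2-fold counts include Δ*ku70* replicate 1, which differed at least 2-fold from the mean of the other Δ*ku70* libraries for 15.7% of the genes. Tails without that library are not given here, so that its part in them is not known. An unadjusted limma p under 0.05 was reached by 2085 genes (24.3%), and 2847 genes (33.1%) had no overlap between the strains.

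The levels of the raised and lowered DEGs are given as a description, since the level in each strain enters the fold change by which they were called. Raised DEGs had a median of 34.7 FPKM in Δ*rsrB* and 8.64 FPKM in Δ*ku70*, and lowered DEGs a median of 15.7 FPKM in Δ*rsrB* and 48.0 FPKM in Δ*ku70*. Raised DEGs made up 2.17%, 2.00% and 1.97% of the summed FPKM in Δ*rsrB*, against 0.470%, 0.458% and 0.478% in Δ*ku70*. Lowered DEGs made up 1.13%, 1.03% and 0.954% in Δ*rsrB*, against 5.59%, 6.70% and 5.94% in Δ*ku70*. The lowered DEGs thus took a larger share of the Δ*ku70* total than the raised DEGs took of the Δ*rsrB* total. As bulk values, these levels do not tell fewer cells of a kind from less RNA per cell.

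How many of the calls stood depended on the libraries in the fit. Without Δ*rsrB* replicates 1, 2 or 3, 106, 72 and 88 genes were called, and without Δ*ku70* replicates 1, 2 or 3, 930, 127 and 434. The balance of directions moved too, since 56.5% of the 340 DEGs were lowered, against 47.2%, 37.5% and 38.6% without Δ*rsrB* replicates 1, 2 and 3 and 59.8%, 42.5% and 53.0% without Δ*ku70* replicates 1, 2 and 3. More rises than falls were thus called without any of the Δ*rsrB* replicates or without Δ*ku70* replicate 2. Δ*ku70* replicate 1 stood apart, since 15.7% of the tested genes differed at least 2-fold between it and the mean of the other Δ*ku70* libraries. The same measure was 6.43% and 8.34% for Δ*ku70* replicates 2 and 3 and 0.523% to 3.93% for the Δ*rsrB* libraries. Its correlation with the other Δ*ku70* libraries was 0.906 and 0.915 on the log2 scale, while those correlated at 0.984 with each other and the Δ*rsrB* libraries at 0.977 to 0.991. On the log2 scale, the SD of a gene had a median of 0.17 in Δ*rsrB*, against 0.30 in Δ*ku70*, and 0.16 over Δ*ku70* replicates 2 and 3. The last value is not on the same footing, since an SD of 2 values tends to come out lower than an SD of 3. A set of 71 of the 340 DEGs (20.9%), 44 raised and 27 lowered, was called in the same direction with each of the 6 libraries left out in turn. These were the same 71 that the fit without Δ*rsrB* replicate 2 kept, so that the other left-out libraries removed no more. Their median log2 fold changes were 2.93 and -2.76. The smallest were 1.53 and -1.34, so that the larger medians follow in part from smaller changes not passing that fit.

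The FPKM summed to between 1039073 and 1086112 in Δ*rsrB* and between 950456 and 1047725 in Δ*ku70*, the 10 highest genes held 10.2% to 13.3% of each total, and 315 to 405 genes were listed at 0. How many reads lie behind a value is unknown, and no counting error can be given. Their relative depth, read from the steps between values of weakly expressed genes, was 0.983 to 1 times that of Δ*ku70* replicate 2, the most frequent ratio among 82 to 139 genes, but only 17.1% to 29.2% of these genes had it. The 1124 genes under the mean of 1 FPKM, 35 of them at 0 in all 6 libraries, reached at most 3.56 FPKM in any library. The gene just inside that limit had 0.83, 0.92 and 0.38 FPKM in Δ*rsrB*, against 1.97, 1.03 and 0.87 FPKM in Δ*ku70*. The gene just outside it had 1.35, 1.17 and 0.78 FPKM in Δ*rsrB*, against 0.57, 0.96 and 1.15 FPKM in Δ*ku70*.

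DEGs were found at every level of expression. They made up 3.07% of the 1044 genes with a mean of 1 to 5 FPKM over the 6 libraries, 4.52% of the 2299 genes at 5 to 20 FPKM, 3.85% of the 3583 genes at 20 to 100 FPKM, 3.81% of the 1495 genes at 100 to 1000 FPKM and 5.11% of the 176 genes at 1000 FPKM or more. These shares lay around the 3.95% of all genes. The balance of the directions was less even. Raised DEGs numbered 19 against 13 lowered in the lowest class, 50 against 54 and 52 against 86 in the next classes, 25 against 32 at 100 to 1000 FPKM, and 2 against 7 in the highest class.

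**Figure D2:**
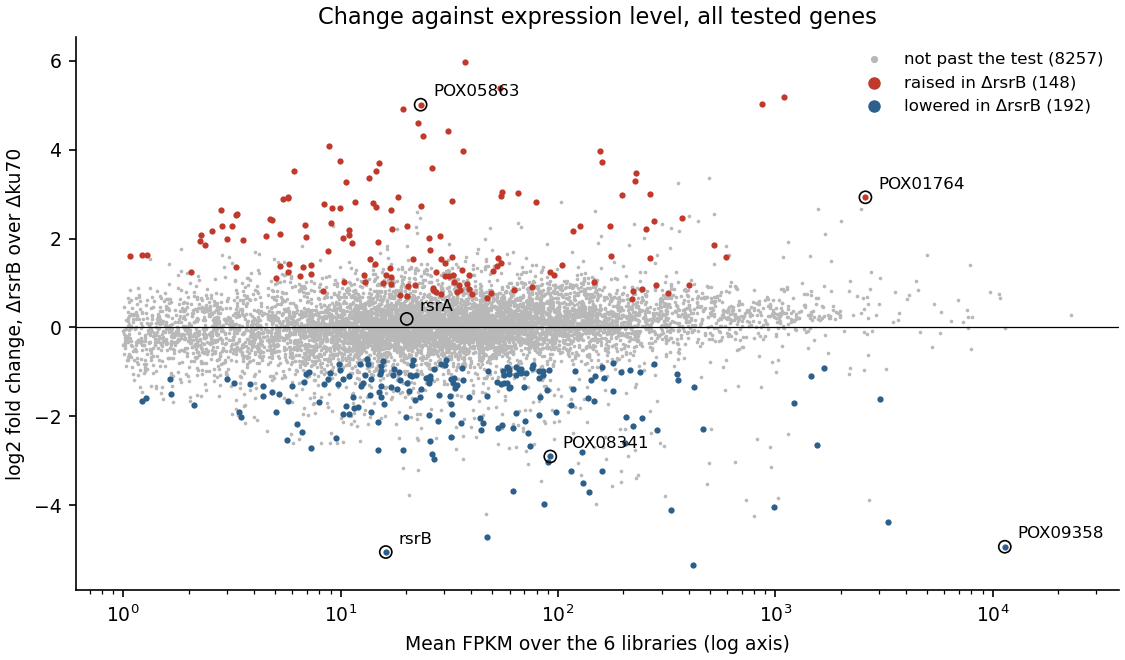
Log2 fold change (ΔrsrB over Δku70) of the 8597 tested genes against their mean FPKM over the 6 libraries on a log axis, with the 148 raised and 192 lowered DEGs coloured and the named genes ringed. DEGs lie at all levels, and the rises reach 5.98 and the falls -5.35.

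Set against that, the whole distribution shifted with the level. The median log2 fold change of all genes in a class was -0.13, -0.04, 0.06, 0.18 and 0.28 with increasing level, and 39.6%, 46.8%, 56.2%, 65.8% and 75.6% of the genes were higher in Δ*rsrB*. Genes without overlap between the strains followed the same course. In the class of 1 to 5 FPKM, 113 were higher and 193 lower in Δ*rsrB*, whereas at 1000 FPKM or more 67 were higher and 19 lower. The course remained, at smaller medians, without Δ*ku70* replicate 1 (-0.11 in the lowest class and 0.18 in the highest) and after quantile normalization (-0.06 and 0.15). Rescaling each library to the same total gave -0.19 and 0.20 and turned the sign of the class of 20 to 100 FPKM to -0.01, while quantile normalization turned that of 5 to 20 FPKM to 0.01. These shifts are small beside the changes of the DEGs, and among the most abundant genes the DEGs ran the other way, with more falls than rises.

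**Figure D3:**
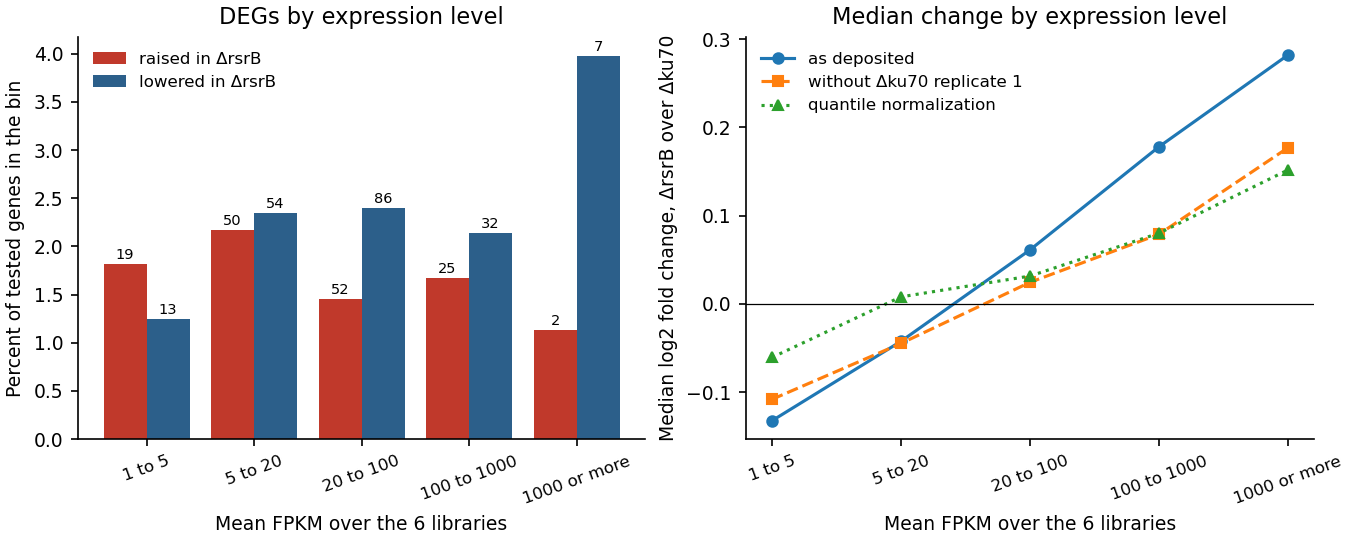
Left, percent of the tested genes in each of 5 classes of mean FPKM over the 6 libraries that were raised or lowered DEGs, with the number of DEGs above each bar, and right, the median log2 fold change (ΔrsrB over Δku70) of all tested genes in the class, as deposited, without Δku70 replicate 1 and after quantile normalization. Lowered DEGs reach 3.98% in the highest class, and the median of the deposited values runs from -0.13 in the lowest class to 0.28 in the highest.

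The abundant end of the list held 9 DEGs with a mean of at least 1000 FPKM, 2 raised and 7 lowered. POX01764, the raised DEG with the highest mean in Δ*rsrB*, had 4510, 4842 and 4409 FPKM in Δ*rsrB*, against 797, 574 and 474 FPKM in Δ*ku70*. It was 7.46-fold higher in the mutant (4587 ± 226 FPKM in Δ*rsrB* and 615 ± 166 FPKM in Δ*ku70*, SD, n = 3 each), with a log2 fold change of 2.93 ± 0.22 (SE) and a limma adjusted p of 0.00177. By mean FPKM it was gene number 22 in Δ*rsrB* and number 284 in Δ*ku70*. It took 0.434%, 0.452% and 0.406% of the total in Δ*rsrB*, against 0.0839%, 0.0556% and 0.0452% in Δ*ku70*. Its level in Δ*rsrA* was 240 to 326 FPKM, below all the Δ*ku70* libraries. The other raised gene of this class, not identified further, had 2439, 1912 and 2080 FPKM in Δ*rsrB*, against 46.0, 51.4 and 81.4 FPKM in Δ*ku70*, with a log2 fold change of 5.18.

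POX09358 was the lowered DEG with the highest mean in Δ*ku70*. It had 753, 665 and 525 FPKM in Δ*rsrB*, against 9257, 29076 and 28047 FPKM in Δ*ku70*. Every Δ*ku70* library lay far above every Δ*rsrB* library, although Δ*ku70* replicate 1 had less of this transcript than the other Δ*ku70* libraries. The gene was 34.2-fold lower in the mutant by the ratio of means (647 ± 115 FPKM in Δ*rsrB* and 22127 ± 11157 FPKM in Δ*ku70*, SD, n = 3 each), with a log2 fold change of -4.93 ± 0.46 (SE) and a limma adjusted p of 0.00422. It was the most abundant transcript of Δ*ku70* by mean and number 297 in Δ*rsrB*, and it took 0.0725%, 0.0621% and 0.0483% of the total in Δ*rsrB*, against 0.974%, 2.82% and 2.68% in Δ*ku70*. In Δ*rsrA* it had 3785 to 5985 FPKM, between the other strains. The other 6 lowered genes of this class had log2 fold changes between -0.92 and -4.38. The largest of these falls belonged to a gene with 242, 269 and 334 FPKM in Δ*rsrB*, against 10214, 4191 and 4584 FPKM in Δ*ku70*.

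The largest changes in each direction are likewise a description, since the level in each strain enters the change by which they were ranked and a gene near 0 in Δ*ku70* cannot fall far. The 10 largest rises had log2 fold changes of 4.08 to 5.98, and 8 of them had a mean under 5 FPKM in Δ*ku70*. The mean FPKM of these genes had a median of 53.3 in Δ*rsrB*, against 1.29 in Δ*ku70*. The 10 largest falls, *rsrB* left aside, had log2 fold changes of -3.49 to -5.35, and 9 of them had a mean over 100 FPKM in Δ*ku70*. Here the median of the mean FPKM was 19.98 in Δ*rsrB*, against 443 in Δ*ku70*. All 10 of the lowered genes kept values of 2.41 FPKM or more in the mutant.

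A stricter view of the same ends counted genes under 1 FPKM in every library of one strain and at 5 FPKM or more in every library of the other. There were 9 genes (0.105% of those tested) of this kind with the high level in Δ*rsrB* and 1 (0.0116%) with the high level in Δ*ku70*, which was *rsrB* itself. The 9 genes had 5.66 to 81.1 FPKM in Δ*rsrB* and 0.05 to 0.82 FPKM in Δ*ku70*, with log2 fold changes of 2.55 to 5.98. They were under 1 FPKM in Δ*rsrA* as well, with a highest value of 0.58 FPKM. Without Δ*ku70* replicate 1 there were 15 such genes, and with any other library left out 9 to 13. For 5 of the 9 genes, the identifiers lay in the runs described next.

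Part of the DEGs stood side by side in the list. The order of the numbers is that of the gene list, and whether neighbours in it are neighbours on a chromosome was not checked, since no coordinates are given here. For 127 of the 148 raised DEGs the next identifier was also tested, and it was a raised DEG for 24 of them (18.9%, beside 1.72% of all tested genes). For 169 of the 192 lowered DEGs the next identifier was tested, and it was a lowered DEG for 22 (13%, beside 2.23% of all tested genes). In 1 case the next identifier was called in the opposite direction. Stretches of 3 or more consecutive identifiers called in 1 direction, termed runs here, numbered 6 and held 25 genes, with 4 runs and 17 genes raised and 2 runs and 8 genes lowered. Another 11 pairs were raised and 16 pairs were lowered. No chance level was computed for these counts. The count of genes in runs was 13 without each Δ*rsrB* replicate in turn and 87, 17 and 31 without Δ*ku70* replicates 1, 2 and 3.

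**Figure D4:**
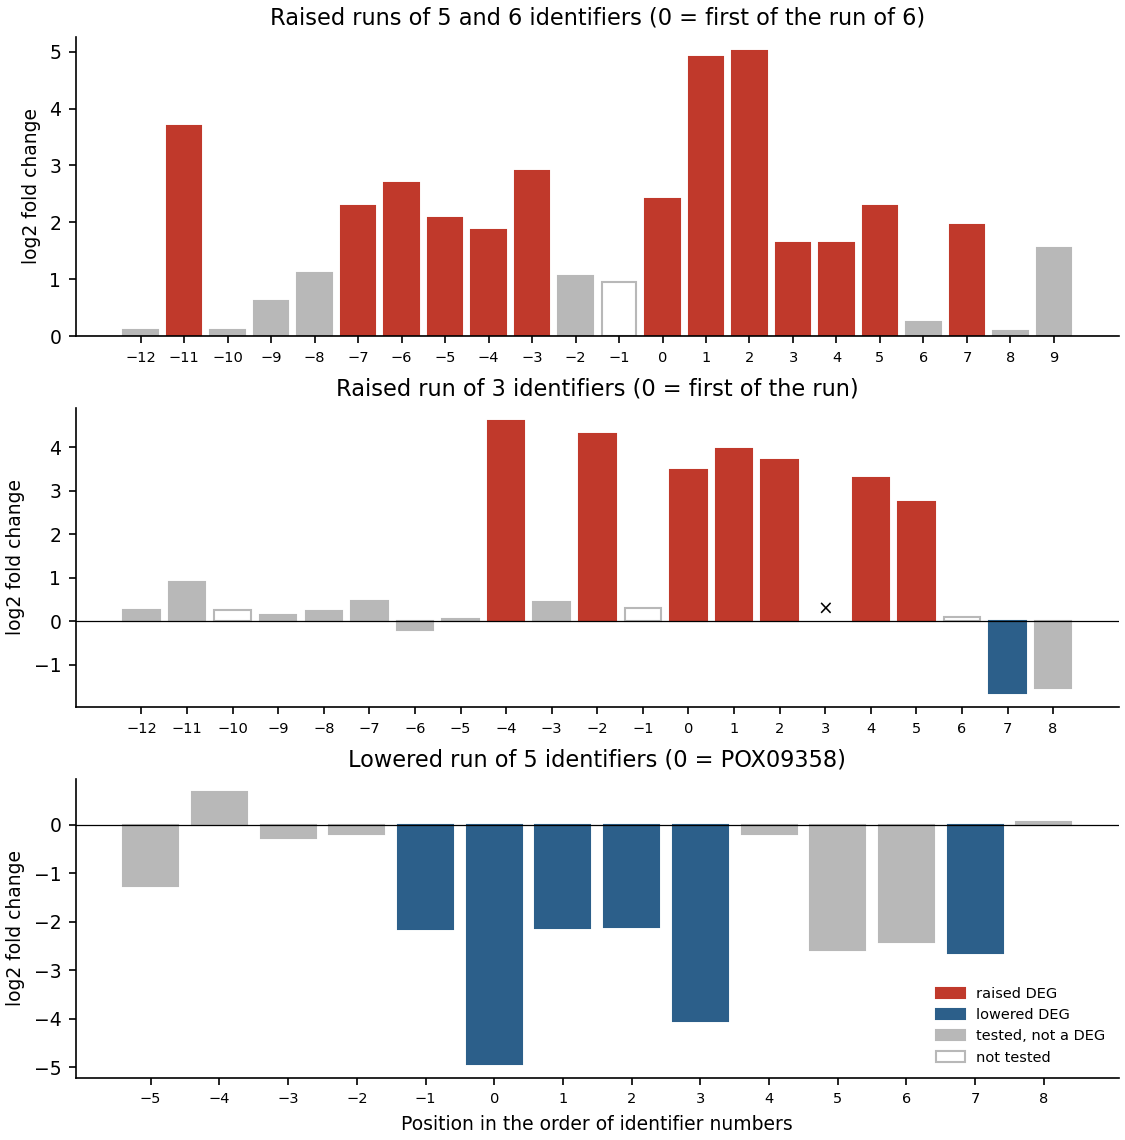
Log2 fold change (ΔrsrB over Δku70) of consecutive identifiers, by position in the order of their numbers, around the raised runs of 5 and 6 genes, the abundant raised run of 3 genes and the lowered run with POX09358, with raised DEGs in red, lowered DEGs in blue, tested genes that are not DEGs in grey, genes not tested as open bars and a cross at a number that is not listed. Raised DEGs fill 13 of the 22 positions in the top panel and lowered DEGs 6 of the 14 in the bottom panel.

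The longest run held 6 raised genes that were nearly silent in Δ*ku70*. Its summed level was 123, 107 and 82.9 FPKM in Δ*rsrB*, against 4.06, 1.07 and 1.83 FPKM in Δ*ku70*, and single members had 1.68 to 58.2 FPKM in Δ*rsrB* and 0 to 1.52 FPKM in Δ*ku70*. The log2 fold changes ran from 1.63 to 5.01 within the run, with limma adjusted p-values of at most 0.0308. The largest rise was that of POX05863, which stood in the middle of the run. It had 58.2, 44.0 and 36.6 FPKM in Δ*rsrB*, against 0.76, 0.33 and 0.27 FPKM in Δ*ku70*, which is a 102-fold ratio of means (46.3 ± 11.0 FPKM in Δ*rsrB* and 0.453 ± 0.267 FPKM in Δ*ku70*, SD, n = 3 each). Its log2 fold change was 5.01 ± 0.24 (SE), with a limma adjusted p of 0.000366. The gene before it in the run was close to it in both strains, with 43.9, 41.9 and 30.2 FPKM in Δ*rsrB*, against 0.40, 0.07 and 0.47 FPKM in Δ*ku70*. The last 3 members were weaker, at 1.68 to 6.09 FPKM in Δ*rsrB*. Of the 6 members, 3 were called without each of the Δ*rsrB* replicates and without Δ*ku70* replicate 2. Every member averaged under 1 FPKM in Δ*ku70*, so that it entered the test only through its level in Δ*rsrB* and had little room to fall. At a mean of at least 5 FPKM, 2 of the 6 members remained in the test and were called.

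A run of 5 raised genes ended just before it, separated by 2 identifiers. Its members had 2.28 to 20.2 FPKM in Δ*rsrB* and 0.11 to 2.53 FPKM in Δ*ku70*, with log2 fold changes of 1.86 to 2.91. Their sums were 47.1, 49.9 and 31.6 FPKM in Δ*rsrB*, against 3.78, 3.47 and 3.34 FPKM in Δ*ku70*. Of the 5 members, 2, 2 and 3 were called without Δ*rsrB* replicates 1, 2 and 3, and 3 without Δ*ku70* replicate 2. Most members averaged under 1 FPKM in Δ*ku70* and entered the test only through Δ*rsrB*. At a mean of at least 5 FPKM, 2 of the 5 members remained in the test and were called. Of the identifiers between the runs, 1 was under the limit on the mean and the other had a log2 fold change of 1.06 that did not pass the test (limma adjusted p = 0.106). Over the 22 identifiers around both runs, 21 were tested, of which 13 rose, beside 1.72% of all tested genes, and none was called lower. The stretch was drawn around the runs, so that this count follows in part from its choice. In Δ*rsrA* the members of both runs had at most 0.48 FPKM, which is below every Δ*rsrB* library.

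**Figure D5:**
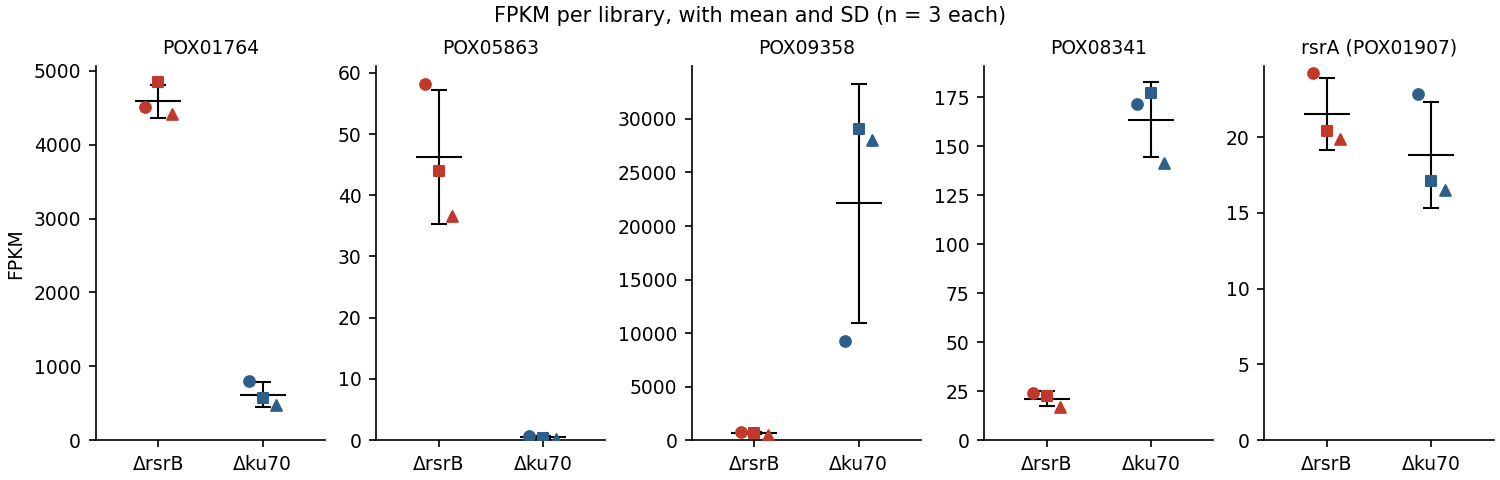
FPKM on linear axes that start at 0, each gene on its own scale, with 1 point per library (the marker shape gives the replicate), a line at the mean and bars of 1 SD, for ΔrsrB and Δku70 (n = 3 each). POX01764 and POX05863 are higher in every ΔrsrB library, POX09358 and POX08341 are lower in every ΔrsrB library, and the values of rsrA overlap.

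The 3-gene raised run that held the largest rise of all was sharply bounded. Its genes had 14.39, 12.03 and 9.79 FPKM, then 81.1, 75.2 and 67.7 FPKM, then 18.2, 16.6 and 11.4 FPKM in Δ*rsrB*. In Δ*ku70* the same genes had 0.10, 0.14 and 0.12 FPKM, then 0.07, 0.34 and 0.20 FPKM, then 1.12, 1.26 and 1.65 FPKM. The log2 fold changes were 3.53, 5.98 and 2.79, whereas the identifiers on either side had log2 fold changes of -0.01 and 0.52 and were not called. All 3 members were called under every one of the 16 alternative settings tried.

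The last raised run was more abundant. Its 3 genes had 258 to 510 FPKM in Δ*rsrB* and 7.17 to 50.5 FPKM in Δ*ku70*, with sums of 1193, 930 and 882 FPKM in Δ*rsrB*, against 37.6, 120 and 94.3 FPKM in Δ*ku70*. The log2 fold changes were 3.47, 3.97 and 3.72, and Δ*ku70* replicate 1 was the lowest library for each gene. Raised DEGs continued on both sides once numbers that are not listed or were not tested were passed over, which made it a run of 6, a definition added after the data had been seen. A lowered DEG stood 2 identifiers after the end of that longer run, with 1.99, 1.71 and 2.91 FPKM in Δ*rsrB*, against 8.07, 7.54 and 11.99 FPKM in Δ*ku70* (log2 fold change -1.66, limma adjusted p = 0.0206). The gene 4 identifiers before the run was also among the largest rises, with 50.8, 52.7 and 29.8 FPKM in Δ*rsrB*, against 2.29, 0.37 and 0.33 FPKM in Δ*ku70*. Of the 8 identifiers before that one, at most 69.5 FPKM in any Δ*rsrB* library, 7 were tested and none was called, and their log2 fold changes lay between -0.21 and 0.91. In Δ*rsrA* the same 8 identifiers had 262 to 9050 FPKM. The 3 genes of the run had 39.1 to 139 FPKM there, with sums of 252, 284 and 207 FPKM, above Δ*ku70* and below Δ*rsrB*. The 8 identifiers were thus high in Δ*rsrA* only, whereas the genes of the run were higher than in Δ*ku70* in both mutants. Without any of the Δ*rsrB* replicates, 1 of the 3 genes of this run was called, and all 3 kept their sign.

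The run with POX09358 was the longest of lowered genes, with 5 members. Its sums were 918, 787 and 653 FPKM in Δ*rsrB*, against 10919, 31569 and 29876 FPKM in Δ*ku70*, and POX09358 made up most of these. The last member of the run had 141, 99.2 and 97.3 FPKM in Δ*rsrB*, against 1554, 2320 and 1716 FPKM in Δ*ku70*, with a log2 fold change of -4.04. The other 3 members were weakly expressed, at 4.66 to 12.8 FPKM in Δ*rsrB* and 21.8 to 105 FPKM in Δ*ku70*, and their log2 fold changes were alike, at -2.15, -2.12 and -2.12. With each Δ*rsrB* replicate left out, 4 of the 5 members were called. A further abundant DEG followed 4 identifiers after the end, with 459, 401 and 331 FPKM in Δ*rsrB*, against 1268, 3666 and 3180 FPKM in Δ*ku70*. In Δ*rsrA*, the sums over the 5 members were 5840, 7680 and 4895 FPKM, above the sums in Δ*rsrB*, and POX09358 made up most of them. The first member of the run went the other way between the mutants, with 10.8, 10.4 and 12.8 FPKM in Δ*rsrB*, against 6.74, 7.55 and 5.40 FPKM in Δ*rsrA*.

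The second lowered run stood close to the end of the list and held 3 genes. Their sums were 34.2, 49.0 and 37.9 FPKM in Δ*rsrB*, against 552, 384 and 558 FPKM in Δ*ku70*, and their log2 fold changes were -3.24, -4.71 and -3.68. The middle gene was at 2.41, 2.44 and 2.43 FPKM in Δ*rsrB*, against 118, 61.1 and 95.3 FPKM in Δ*ku70*. In Δ*rsrA* the sums were 157, 130 and 92.6 FPKM, below Δ*ku70* and above Δ*rsrB*, and the first member made up most of them. The last member overlapped between the mutants, with 8.72, 7.95 and 7.39 FPKM in Δ*rsrB*, against 9.50, 9.63 and 4.84 FPKM in Δ*rsrA*. As for the bounded raised run, all 3 members were called under every one of the 16 alternative settings.

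The count of genes in runs also followed the definition. With 1 identifier allowed to be skipped there were 38 genes in 8 runs, the longest with 7 raised or 5 lowered genes. When genes that changed at least 2-fold without overlap were used in place of DEGs, 81 of 712 genes lay in 23 runs, and the longest again held 7 raised or 5 lowered genes.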

How the data were processed

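For each library the authors deposited 1 list of FPKM values, rounded to hundredths. Per the labels, RNA was enriched for poly(A) tails with oligo(dT) beads. The study's methods name sequencing at BGI, mapping to the genome of strain HP7-1, and the tools BWA, Bowtie2, RSEM and NOISeq, and the submitters' processing notes name bcl2fastq and HISAT2. Filters, strandedness and settings are not given in the sources used here. FPKM values are relative to the mapped total, so that genes which take up more of a library push the rest down. Tests for counts were not applied to them.

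Values were transformed to log2(FPKM + 1). Genes whose FPKM averaged 1 or more in the 6 libraries were fitted in R 4.3.3 with limma 3.58.1 (lmFit, then eBayes with a trend), and a Benjamini-Hochberg adjusted p under 0.05 over all 8597 genes defined a DEG. NOISeq was not used here. *rsrA* was also tested by an exact permutation. The limma p-values set the difference between the strains against 1 spread per gene. That spread was pooled over the cultures of both strains and drawn toward a trend with the expression level. Whether it includes differences between transformants is not known. The limma fit was tested on simulated data with independent values and equal spread in both strains. These held no library that stood apart as Δ*ku70* replicate 1 did, so that the test does not cover such a case.

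The genes named by rule are *rsrB*, *rsrA*, the raised DEG with the highest mean in Δ*rsrB*, the lowered DEG with the highest mean in Δ*ku70*, and the largest change in the longest raised and the longest lowered run. POX08341, next to the deleted gene, was added outside these rules after its values were seen. POX09358 met both conditions for lowered genes. The members, rules and lists were chosen with earlier results of these data known. Planned lists of amylase, conidiation and transporter genes were not analysed, because their identifiers could not be paired. The replicate numbers were not taken as pairs, since the deviations of same-numbered libraries from their strain means correlated at 0.05, -0.17 and 0.26. Alternatives were a pseudocount of 0.1, no filter, a mean of at least 5 FPKM, 3 other scalings, 1 fit over all 9 libraries, a replicate block, array weights, robust eBayes, each library left out, and 3 other definitions of a run, of which 1 was added after seeing the data. The Δ*rsrC* libraries were not analysed here.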

Additional observations from a re-analysis of the deposited data

How the results depend on the processing

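The genes named in the text kept their direction and their side of the limma threshold under all 16 alternatives. Their log2 fold changes ranged between 2.76 and 3.13 for POX01764, 4.84 and 6.47 for POX05863, -5.48 and -4.65 for POX09358, -3.0 and -2.75 for POX08341, and 0.11 and 0.33 for *rsrA*, which never passed. Of the 340 DEGs, 68 (20%) were called in the same direction under all 16.

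Counts moved more. With each library left out in turn, the number of DEGs ranged from 72 to 930, that of genes in runs from 13 to 87, that of DEGs with a mean of at least 100 FPKM from 20 to 215 (66 with all libraries), and that of genes near 0 in 1 strain from 9 to 15. A single fit over all 9 libraries called 1123 genes, with 67 in runs and 270 at 100 FPKM or more. Array weights called 3989, with 777 in runs and 841 at 100 FPKM or more. Of these 3989, 2156 were raised and 1833 lowered, so that the share of lowered calls was 46.0% there. A limit of 5 FPKM left 14 genes in runs, 1 skipped identifier gave 38, and 2-fold changes without overlap gave 81. The causes were not tested.

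The 3 libraries of a strain share only numbers with those of the other. With the replicate number as a block, 149 genes were called, 13 of them in runs and 34 at 100 FPKM or more, and the share of lowered calls was 45.6% in place of 56.5%. Not every library correlated best with its own number.

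The depth behind the values is unknown, which leaves 0 without a detection limit. The scalings moved the share of lowered calls by less than 10 percentage points, to at most 62.3%, whereas leaving out 1 library moved it to between 37.5% and 59.8%. Of 937 genes with a difference of at least 2-fold, 277 passed the test.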
